A study of Triticum aestivum and Aegilops tauschii and Triticum carthlicum with 18 samples.

Results

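Allo-AT9 is a synthetic allohexaploid wheat line, and its leaf transcripts were compared here with MPV9, a mixture of RNA from its parents. The line came from a cross of the tetraploid Triticum turgidum ssp. carthlicum accession TTH01, as the mother, with the diploid Aegilops tauschii accession TQ27, followed by doubling of the chromosomes with colchicine. The 4 arrays of Allo-AT9, 2 at selfed generation S4 and 2 at S5, were pooled as one side, and the 2 arrays of MPV9, in which 2 parts of TTH01 RNA met 1 part of TQ27 RNA, formed the other. These are 6 of the 18 arrays of the series. The rest hold the parents TTH01, TQ27 and T. turgidum ssp. durum TTR04, and the sister line Allo-AT5 (TTR04 crossed with TQ27) at S4 and S5 with its own mixture MPV5, each group with 2 arrays. Every array of a line stands for a pool of 10 seedlings of 1 line, sampled at the second leaf of the 3-leaf stage after growth under 12 h of light, at 22 °C in the light and 20 °C in the dark. A departure of Allo-AT9 therefore belongs to 1 line and not to allohexaploids at large.

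An allohexaploid carries the A and B genomes of its tetraploid parent and the D genome of its diploid parent in one nucleus. Suppose each parental copy of a nuclear gene went on working as it did in the parent. The level in the hexaploid would then equal that of the RNA mixture, and the gene would be called additive. A gene whose level in the line departs from the mixture is called non-additive. It may rise above or fall below both parents, or it may take the level of one parent alone, which is called dominance of that parent. The array is built from wheat transcript clusters, so the copies of a gene from the A, B and D genomes are often read by the same probe set.

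The comparison covered 61115 probe sets, each treated as a gene, after 175 control probe sets were set aside. A gene counted as expressed when all arrays of at least 1 side reached a log2 level of 4.5, and 25421 did. The normalization sets the arrays to a like distribution, so their medians do not show whether an array was dimmer as a whole. Of the 36 leaf probe sets looked at, most of them for the chloroplast gene rbcL, the median lay between 4.02 and 4.75 on the 6 arrays. The list held both very high and very low probe sets of the same gene, and those with the highest levels were near the top of the scale. One probe set of the chloroplast Rieske protein petC lay between 12.88 and 12.99 and another between 2.11 and 2.67. The oxygen-evolving protein PsbO lay between 12.92 and 13.26, and phosphoribulokinase (PRK), of the Calvin cycle, between 12.40 and 12.92. Of 22 probe sets for grain storage proteins and inhibitors, 3 reached 4.5 on each of the 6 arrays, and the median of the 22 lay between 2.79 and 3.07.

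Most genes of Allo-AT9 stood close to the mixture. Over the expressed genes the median departure, Allo-AT9 minus MPV9, was 0.02 on the log2 scale, the median absolute departure was 0.16, and 475 genes (1.87%) departed more than 2-fold. The group means correlated with r = 0.977 across these genes, which are not independent replicates. Single arrays of Allo-AT9 correlated with each other between 0.912 and 0.975, and with single arrays of MPV9 between 0.901 and 0.969, so that 2 arrays of the line could differ as much as an array of the line and an array of the mixture.

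Against this spread, 59 genes passed the test for non-additive expression (limma, Benjamini-Hochberg adjusted p under 0.05). They are 0.232% of the expressed genes. In Allo-AT9 37 were higher than MPV9 (0.146%) and 22 were lower (0.0865%). At an unadjusted p under 0.05, 358 genes were higher and 395 lower. The count rests on both MPV9 arrays, as 30 genes were called without the first and 34 without the second. All 59 departed more than 2-fold, and in all 59 the 4 Allo-AT9 arrays lay wholly above or wholly below both MPV9 arrays. Such a separation of the arrays alone was seen upwards in 5.59% and downwards in 5.16% of the expressed genes. Since each array reads a whole leaf, fewer cells that use a gene and less RNA of it per cell cannot be told apart.

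**Figure D1:**
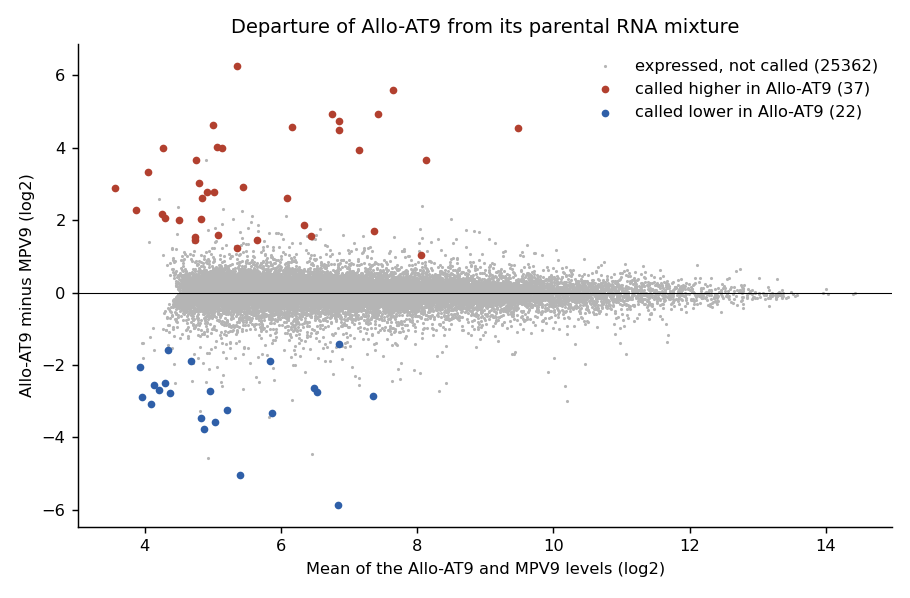
Departure of Allo-AT9 from its parental RNA mixture (Allo-AT9 minus MPV9, log2) against the mean level of both (log2), 1 point per expressed gene. The 37 genes called higher (red) reach 6.26 and the 22 called lower (blue) reach -5.86, while the genes that were not called (grey) crowd around 0.

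The genes that rose were mostly low in both parents, with a median level of 3.78 in TTH01, 4.05 in TQ27 and 3.98 in MPV9, against 6.89 in Allo-AT9. The largest rise was in Ta.7102.1.S1_at, for which the annotation used here gives no gene. Its level was 8.70 and 8.32 on the S4 arrays and 8.75 and 8.18 on the S5 arrays, against 2.09 and 2.37 in MPV9. All 4 arrays of the line were high and the mixture was far under the expression level. The departure was 6.26 ± 0.19 (SE; adjusted p = 3.22e-08). Because both MPV9 arrays lay under 4.5, the part of this rise that stands above that level is smaller, at least 15.9-fold. TTH01 gave 2.34 and 2.29, and TQ27 2.28 and 2.49, so neither parent came near the level of the line.

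A second probe set of the same transcript cluster, Ta.7102.3.S1_at, behaved alike. It read 7.27 and 7.16 in S4 and 7.69 and 7.14 in S5, against 2.85 and 2.51 in MPV9. The groups did not overlap, and the departure was 4.64 ± 0.22 (SE; adjusted p = 1.91e-06), or at least 7.04-fold above the expression level. The third, Ta.7102.2.S1_at, was between 3.22 and 4.25 in the line and was not expressed by the rule.

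In 4 more genes with the largest rises the mixture was near or just above the expression level. Ta.16450.1.S1_x_at read 9.82 and 11.43 in S4 and 9.51 and 11.00 in S5, against 4.87 and 4.82 in MPV9, a departure of 5.59 ± 0.47 (SE; adjusted p = 0.000185). The second replicates were higher than the first, and all 4 arrays were far above the mixture. The suffix _x_at marks probe sets of which some probes match further transcripts, so a signal in them need not come from 1 gene. Other probe sets of this cluster did not pass the test. Ta.16450.1.S1_a_at departed by 0.22 at a level of 12.91 in the line, and Ta.16450.2.S1_at by -0.08 at 9.38.

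Ta.15177.3.S1_x_at read 9.70 and 10.34 in S4 and 9.68 and 9.85 in S5, against 4.97 and 4.95 in MPV9, a departure of 4.93 ± 0.31 (SE; adjusted p = 2.13e-05). Every array of the line was well above the mixture. From the same cluster Ta.15177.1.S1_x_at rose by 4.54 ± 0.58 to a mean of 11.75, the highest level among the 37 (adjusted p = 0.00663), and Ta.15177.2.S1_x_at rose by 2.61 ± 0.26 (adjusted p = 0.000801), a call that was lost when only the 6 arrays were fitted (adjusted p = 0.101). Without the first MPV9 array the call of Ta.15177.1.S1_x_at was lost (adjusted p = 0.145), as it was without the second (0.163). The remaining probe set of the cluster, Ta.15177.2.S1_at, departed by 0.30 and did not pass the test.

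Ta.11519.1.A1_x_at read 9.35 and 8.81 in S4 and 9.65 and 9.06 in S5, against 4.01 and 4.57 in MPV9, a departure of 4.93 ± 0.23 (SE; adjusted p = 1.54e-06). The groups were far apart, and the companion Ta.11519.1.A1_at, whose name carries no mark of shared probes, rose by 4.56 ± 0.26 (adjusted p = 7.73e-06). Ta.6001.1.S1_at read 9.63 and 8.79 in S4 and 9.67 and 8.81 in S5, against 3.83 and 5.16 in MPV9, a departure of 4.73 ± 0.40 (SE; adjusted p = 0.000194). Here the MPV9 arrays themselves differed by more than 2-fold, yet both stayed below the line. Ta.6001.1.S1_x_at rose by 4.5 ± 0.30 (adjusted p = 2.95e-05), whereas Ta.6001.1.S1_a_at of the same cluster departed by 0.71 and did not pass the test.

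In 5 transcript clusters more than 1 probe set was called, 11 probe sets in all, so the 37 higher calls stand for 31 clusters. The 22 lower calls stand for 22. Probe sets marked as shared between transcripts or forms of a gene (_x_at, _s_at or _a_at) made up 10 of the 37 (27.0%) and 1 of the 22, against 33.7% of all expressed genes.

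The 37 higher genes departed by 1.04 to 6.26, with a median of 2.89. In 27 the departure was over 4-fold and in 10 over 16-fold, counted with levels below the expression level taken as measured. In 22 of them both MPV9 arrays lay under 4.5, and in 16 all arrays of both parents did as well. Ta.638.1.S1_at, one such gene, read 7.30 and 6.84 in S4 and 6.99 and 7.16 in S5, against 3.16 and 2.95 in MPV9, and its parents lay between 2.89 and 3.37. The line was expressed on all arrays where no array of the mixture or the parents was (departure 4.02 ± 0.20, SE; adjusted p = 2.65e-06; at least 5.95-fold). This gene was chosen after its values were seen.

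The genes that fell had, with few exceptions, been supplied to the mixture by TQ27. The largest fall was in Ta.7909.1.S1_at, which the annotation used here leaves unnamed. It read 4.5 and 3.80 in S4 and 3.68 and 3.67 in S5, against 9.54 and 10.00 in MPV9. All arrays of the line were low and the mixture was high, with a departure of -5.86 ± 0.37 (SE; adjusted p = 2.13e-05). TQ27 gave 11.39 and 12.32 and TTH01 3.20 and 3.75. The difference of the line from TQ27 was -7.95, while that from TTH01, 0.44, did not pass the test (adjusted p = 0.896).

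TaAffx.55413.1.S1_at read 3.22 and 2.59 in S4 and 3.14 and 2.59 in S5, against 7.91 on both MPV9 arrays. The line was under the expression level and the mixture above it, a departure of -5.03 ± 0.73 (SE; adjusted p = 0.0207) or at least 10.7-fold by the expression level. Leaving out any 1 of the 6 arrays took the adjusted p above 0.05, to between 0.0585 and 0.354, and within either generation it was not called. The second probe set of this cluster, TaAffx.55413.1.S1_x_at, departed by -4.56 with an adjusted p of 0.0655 and passed with the replicate number as a block (adjusted p = 0.031).

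Ta.30843.1.S1_at read 3.45 and 2.75 in S4 and 3.16 and 2.59 in S5, against 6.91 and 6.61 in MPV9, a departure of -3.77 ± 0.38 (SE; adjusted p = 0.000927). Ta.3527.1.S1_at read 3.33 and 3.29 in S4 and 2.96 and 3.39 in S5, against 6.95 and 6.70 in MPV9, a departure of -3.58 ± 0.30 (SE; adjusted p = 0.000185). In both genes the line was under the expression level on all arrays, as TTH01 was, and TQ27 read 8.47 or higher on both arrays.

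Ta.22307.1.S1_at read 2.65 and 3.03 in S4 and 3.15 and 3.59 in S5, against 6.65 and 6.46 in MPV9, a departure of -3.45 ± 0.31 (SE; adjusted p = 0.000274). Ta.28369.1.S1_at read 3.37 and 4.98 in S4 and 4.25 and 4.26 in S5, against 7.49 and 7.56 in MPV9, a departure of -3.32 ± 0.42 (SE; adjusted p = 0.00587). The groups were separate in both, though the S4 arrays of Ta.28369.1.S1_at differed by more than 2-fold. That gene lost its call when only the 6 arrays were fitted (adjusted p = 0.0739) and without the first (0.142) or the second (0.136) MPV9 array.

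**Figure D2:**
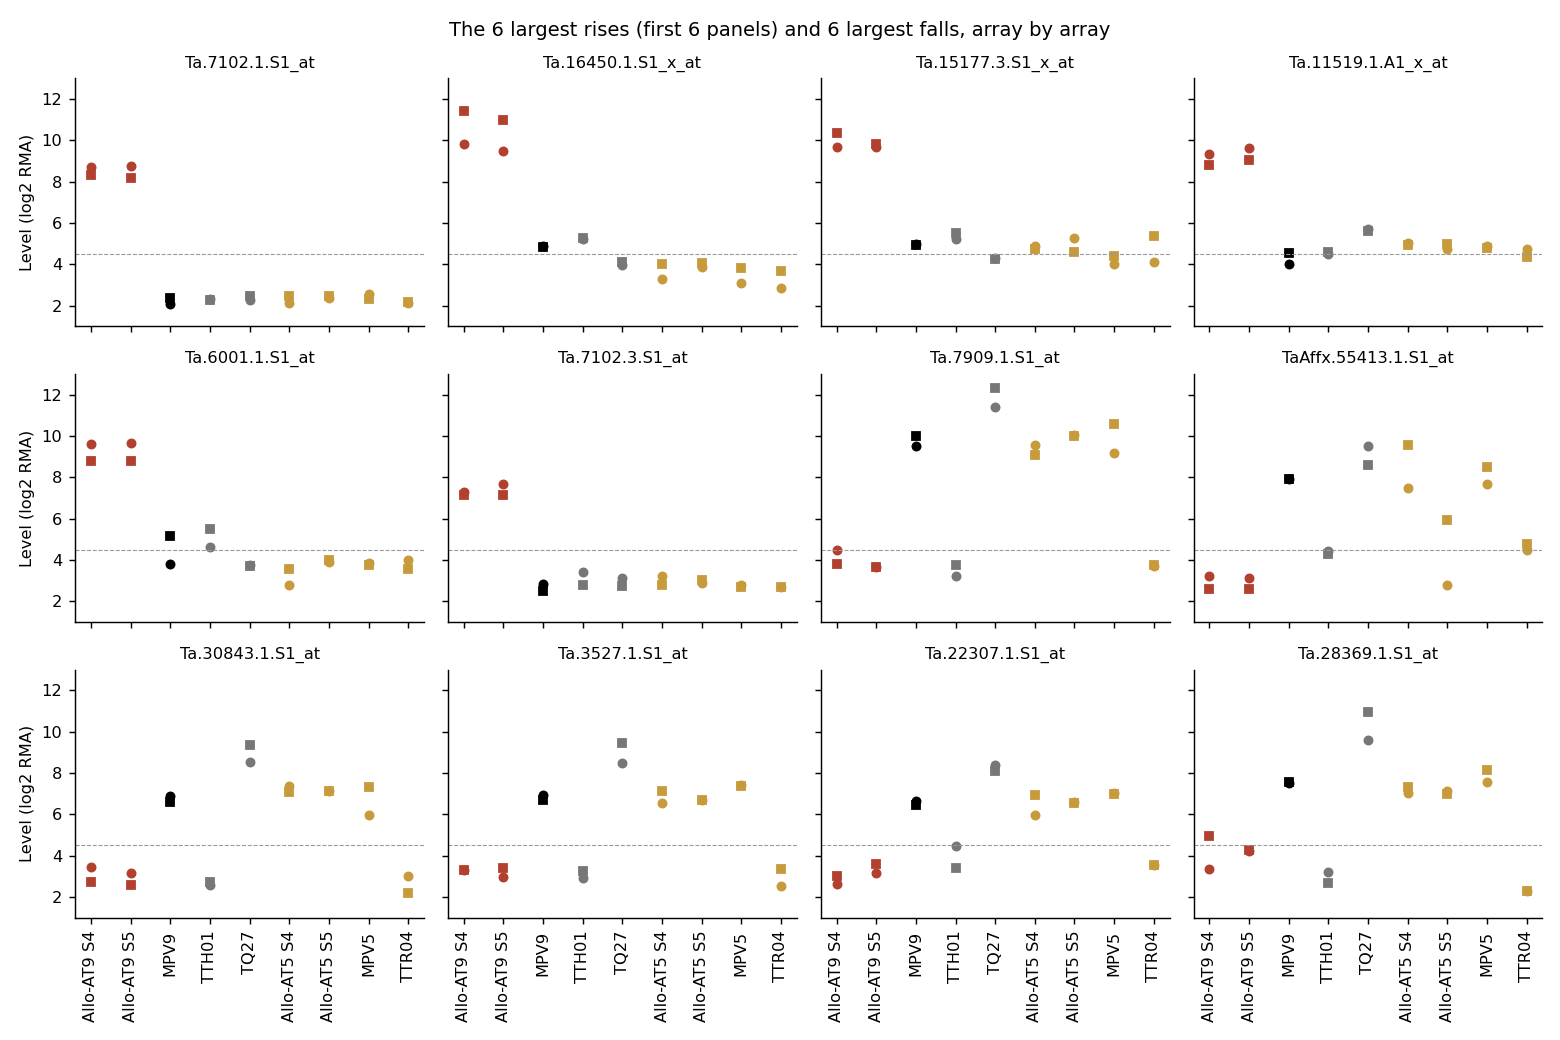
Log2 level of the 6 genes with the largest rise and the 6 with the largest fall on all 18 arrays, by group. Circles are replicate 1 and squares replicate 2, red marks Allo-AT9, black MPV9, grey its parents and yellow the arrays of the sister cross, and the dashed line is the expression level of 4.5. Ta.7102.1.S1_at is between 8.18 and 8.75 in Allo-AT9 alone, and Ta.7909.1.S1_at is between 3.67 and 4.5 in Allo-AT9 but between 9.54 and 10.00 in MPV9.

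The 22 lower genes departed by -1.41 to -5.86, with a median of -2.76, and in 18 the departure was over 4-fold. In 15 of them all 4 arrays of the line were under the expression level. Their median level was 7.92 in TQ27, 6.66 in MPV9, 3.40 in Allo-AT9 and 3.15 in TTH01. The median difference of the line from TTH01 was 0.04, and from TQ27 it was -4.46.

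Each gene was then placed by its differences from both parents, tested in the same fit. A gene is said to take the level of a parent when only its difference from the other parent was called. This does not show equal levels, and no call was possible where neither side was expressed. Among genes placed at the low level of TTH01, TaAffx.55413.1.S1_at was -1.47 from TTH01 and Ta.28369.1.S1_at 1.28. Of the genes expressed on either side, 5.11% differed between Allo-AT9 and TTH01 (4.52% higher and 0.59% lower in the line), 28.7% between Allo-AT9 and TQ27, and 34.4% between the parents (18.1% higher and 16.3% lower in TTH01). Among the 37 higher genes, 29 were above both parents, 5 took the higher level of TQ27 and 2 the higher level of TTH01. Over all expressed genes these classes held 36 (0.142%), 355 (1.4%) and 3702 (14.6%). The last of the 37, Ta.27895.1.A1_at, lay between the parents. Among the 22 lower genes 18 took the low level of TTH01, 2 took the low level of TQ27, 1 lay between the parents, and 1 fell in no class. Over all expressed genes 1605 (6.31%) were at the low level of TTH01 and 55 (0.216%) at that of TQ27. None of the 22 was below both parents. These classes use the Allo-AT9 arrays a second time, so they describe the 59 genes and do not test them again.

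The difference between the parents gives another split, whose group means come from the parents' own arrays. Its test shares the error variance of the common fit, to which the line and the mixture contribute. It also covers only genes expressed in the line or the mixture, and the mixture is itself made of parental RNA. The split is therefore not independent of the calls, and the shares below are descriptive. Genes higher in TQ27 than in TTH01 were 14.0% of the expressed genes and held 19 of the 22 lower calls and 10 of the 37 higher calls. Genes higher in TTH01 were 18.9% of the expressed genes and held 2 of the lower and 3 of the higher calls. The 67.1% with no call between the parents held 1 lower and 24 higher calls. Put as shares of each kind of gene, 0.532% of the genes higher in TQ27 were called lower in the line, against 0.0417% of those higher in TTH01. Departures downwards of more than 2-fold, called or not, were closer, at 2.41% and 2.02%.

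**Figure D3:**
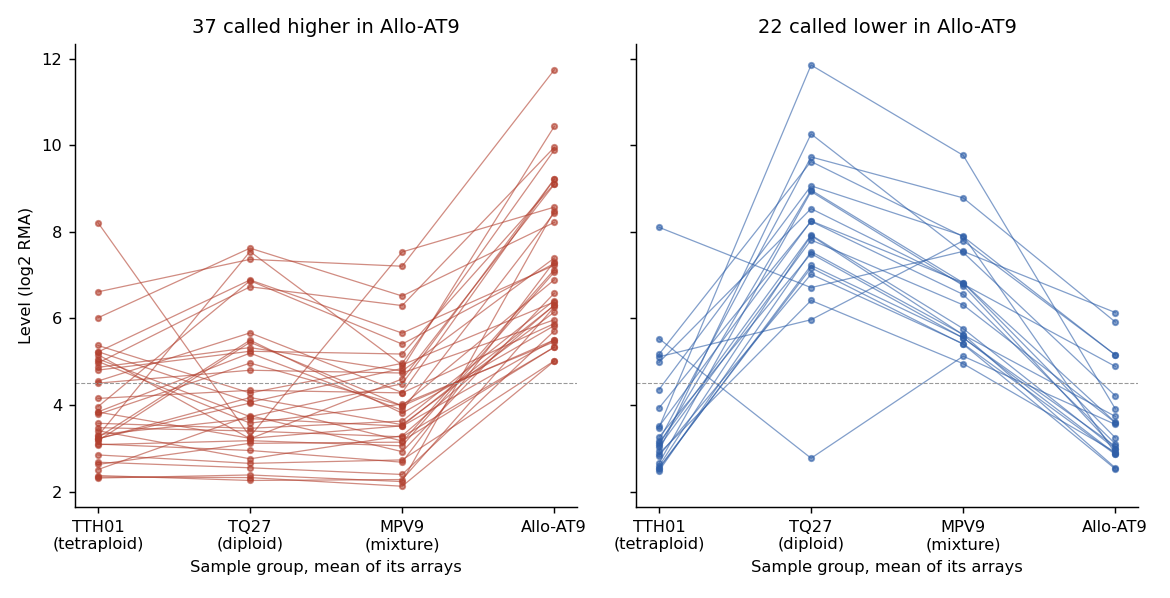
Mean log2 level of each called gene in both parents, in the mixture and in Allo-AT9, 1 line per gene, for the 37 genes called higher (left) and the 22 called lower (right), with the expression level of 4.5 dashed. On the left most lines are low until they rise at Allo-AT9. On the right most rise at TQ27, stay up in MPV9 and drop in Allo-AT9 to near the level of TTH01.

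The exceptions among the called genes, each chosen after its values were seen, fell into a few kinds. TaAffx.56231.1.S1_at read 5.88 and 5.96 in S4 and 6.02 and 5.82 in S5, against 9.06 and 8.52 in MPV9. It stayed expressed in the line, with a departure of -2.87 (adjusted p = 0.00585) and differences of 2.74 from TTH01 and -3.81 from TQ27. Ta.13165.2.S1_at and Ta.22789.1.S1_at were higher in TTH01 than in TQ27 and departed by -1.58 (adjusted p = 0.0335) and -1.41 (adjusted p = 0.0252). These were the 2 genes that took the low level of TQ27.

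In Ta.28842.1.S1_x_at the mixture did not lie between its parents. MPV9 read 7.43 and 8.16, while TTH01 read 4.52 and 5.71 and TQ27 6.29 and 5.65, and the line, at 4.91 and 5.75 in S4 and 4.87 and 5.11 in S5, was close to TTH01. The call of this gene (departure -2.64 ± 0.35, SE; adjusted p = 0.00914) thus rests on MPV9 arrays that stood 2.26 above a mixture calculated from the parents. The reverse was seen in Ta.27895.1.A1_at, which read 6.67 and 6.29 in S4 and 6.51 and 6.05 in S5, against 4.84 and 5.02 in MPV9. There the line minus the calculated mixture was 0.25, and the measured minus the calculated mixture was -1.20 (departure 1.46 ± 0.22, SE; adjusted p = 0.0252).

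The genes that took the higher level of TQ27 were Ta.5025.1.A1_at, TaAffx.14477.1.S1_at, Ta.668.1.S1_at, TaAffx.50907.3.S1_s_at and Ta.8867.1.S1_a_at. The clearest, TaAffx.50907.3.S1_s_at, read 7.46 and 6.94 in S4 and 7.40 and 7.29 in S5, against 5.30 and 5.52 in MPV9. TQ27 gave 7.17 and 6.57 and TTH01 3.76 and 4.17, so the line was near the level of its diploid parent without the dilution that the mixture shows (departure 1.86 ± 0.24, SE; adjusted p = 0.00629). With the replicate number as a block, Ta.5025.1.A1_at and Ta.668.1.S1_at lost their calls (adjusted p = 0.0504 in each). The pair at the higher level of TTH01, Ta.21472.1.S1_at and Ta.22694.1.A1_at, had adjusted p-values of 0.0499 and lost their calls with that block (0.0759 and 0.0606).

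For most of the 59 genes the measured mixture was near the level calculated from the parent arrays, 2 parts of TTH01 and 1 part of TQ27 on the linear scale. MPV9 was within 1 log2 unit of it in 36 of the 37 higher and 20 of the 22 lower genes, and in 99.3% of the expressed genes. All 37 stayed above and all 22 below the calculated mixture, 34 and 21 of them by more than 1. Tested against the calculated mixture in place of MPV9, 53 of the 59 kept their call and direction, 32 of the higher and 21 of the lower. In all, 112 genes were then called, 76 of them lower. The calculated arrays were made from parent arrays that stayed in the same fit. They are not independent replicates, so these counts are descriptive. Over the expressed genes the median of MPV9 minus the calculated mixture was -0.12.

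Presence and absence of a transcript were counted as well, with 4.5 as the level on every array of a group. Of the 28613 genes detected in neither parent nor in MPV9, 22 (0.0769%) were detected on all 4 arrays of Allo-AT9, and 16 of these were called. The same count in Allo-AT5, against TTR04, TQ27 and MPV5, was 5 of 28108 (0.0178%). Among genes detected in TQ27 alone, 870 were also detected in MPV9, and 32 of them (3.68%) were under the level on all 4 arrays of Allo-AT9, 14 of which were called. In Allo-AT5 such losses numbered 34 of 965 (3.52%). Among genes detected in TTH01 alone, 29 of 2342 (1.24%) were under the level in Allo-AT9, and 1 was called. The mixture held 1 part of TQ27 RNA and 2 of TTH01, and the shares were not tested against each other.

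The departures were seen in both generations. Against the same MPV9 arrays, 49 genes were called in S4 (0.189%), with 32 higher (0.124%) and 17 lower (0.0656%), and 46 in S5 (0.177%), with 29 higher (0.112%) and 17 lower (0.0655%). Of the 37 higher genes 28 were called in both generations and 5 in neither, and of the 22 lower genes 14 in both and 2 in neither. The counts share the MPV9 arrays and the pooled call uses both generations, so values are set side by side. The median departure of the 37 was 2.96 in S4 and 2.88 in S5, and that of the 22 was -2.82 and -2.81.

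Ta.7102.1.S1_at departed by 6.28 in S4 and 6.24 in S5, and Ta.7909.1.S1_at by -5.62 and -6.10. The difference between generations, S5 minus S4, was -0.04 ± 0.22 (SE) in the first gene and -0.48 ± 0.43 (SE) in the other. Over the 59 genes it ran from -0.89 to 0.75. Tested directly across all expressed genes, 0 of 25922 differed between S5 and S4 in limma's fit (0%), while 368 had an unadjusted p under 0.05. With 2 arrays for each generation the median SE of that difference was 0.35, which limits what could be called. When S4 or S5 was fitted with the MPV9 arrays alone, 0 genes were called in either, against 49 and 46 in limma's fit of all arrays. The calls within a generation thus depend on the spread estimated over all groups. In the fit of all arrays 649 and 799 genes had an unadjusted p under 0.05.

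In Allo-AT5 the same genes mostly stood near their own mixture. Of the 37 genes higher in Allo-AT9, 35 lay within 1 log2 unit of MPV5 in Allo-AT5, with a median departure of 0.14. Of the 22 lower genes 17 did, with a median of -0.37, and the other 5 lay more than 1 below it. The 2 departures share no arrays, but the genes were chosen by the one in Allo-AT9. The difference between the departures of both lines was therefore tested across all genes, and 28 genes differed (0.105% of 26716), 21 up (0.0786%) and 7 down (0.0262%) in Allo-AT9. Of these 28, 27 were among the 59, so that 21 of the 37 and 6 of the 22 differed between the lines. The difference contains the departure of Allo-AT9 on the same arrays, so this overlap is partly built in and descriptive. Without the first MPV5 or the second MPV9 array 15 genes differed, without either S5 array of Allo-AT5 16, without the first MPV9 array 17, and without the first S4 array of Allo-AT9 18. Against MPV5 itself, Allo-AT5 had 5 called genes (0.0197%), 3 higher (0.0118%) and 2 lower (0.00788%).

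For Ta.7102.1.S1_at the Allo-AT5 arrays lay between 2.11 and 2.48 and MPV5 at 2.56 and 2.33, and the departures differed by 6.35 ± 0.28 (SE; adjusted p = 1.62e-06). Allo-AT5, like all 3 parents, was far under the expression level. In Ta.7909.1.S1_at Allo-AT5 kept the transcript, with 9.55 and 9.06 in S4 and 10.06 and 9.99 in S5, against 9.20 and 10.60 in MPV5 and 3.73 and 3.77 in TTR04. The departures differed by -5.62 ± 0.53 (SE; adjusted p = 0.00166). Ta.30843.1.S1_at, Ta.3527.1.S1_at and Ta.22307.1.S1_at also stayed expressed on all 4 arrays of Allo-AT5, with differences between the lines of -4.30, -2.95 and -2.95 and adjusted p-values of 0.0143, 0.0366 and 0.0399.

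In TaAffx.55413.1.S1_at the arrays of Allo-AT5 were spread, with 7.48 and 9.56 in S4 and 2.78 and 5.96 in S5, against 7.70 and 8.50 in MPV5. The difference between the lines was not called, with a 95% interval from -5.62 to -1.12 before adjustment and an adjusted p of 1. In Ta.28369.1.S1_at it was not called either (-2.59, interval -3.88 to -1.31; adjusted p = 0.601). These intervals lie below 0, so a missed threshold does not show that both lines act alike.

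One gene was called in both lines. It was TaAffx.28462.1.S1_at, a transcribed sequence without a name. It read 9.45 and 9.35 in S4 and 8.82 and 8.83 in S5 of Allo-AT9, against 5.40 and 4.96 in MPV9. It was high on all 4 arrays, with a departure of 3.93 ± 0.36 (SE; adjusted p = 0.000392), and above both parents. In Allo-AT5 it read 6.77 and 8.57 in S4 and 8.44 and 8.10 in S5, against 5.12 and 4.84 in MPV5, a departure of 2.99 ± 0.36 (SE; adjusted p = 0.0335). The difference between the lines was 0.94, with an interval from -0.17 to 2.06 (adjusted p = 1).

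**Figure D4:**
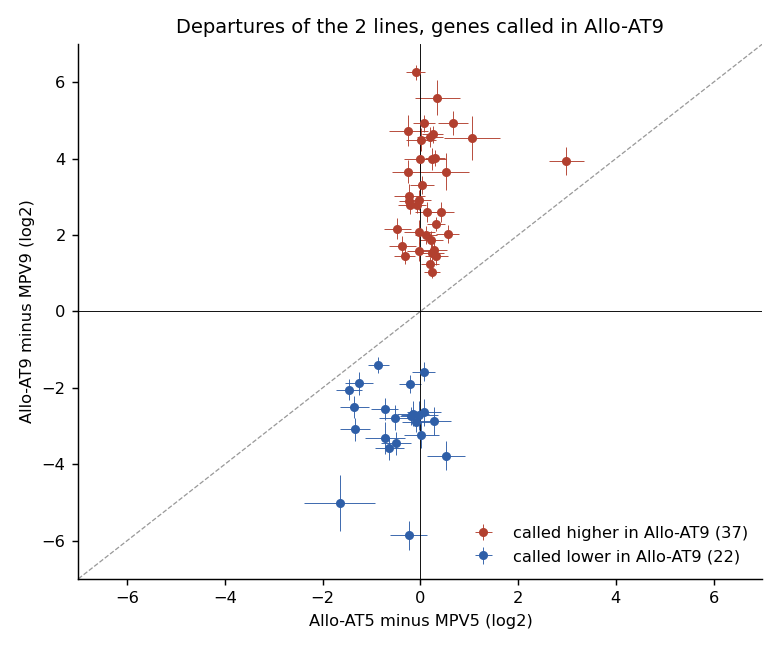
Departure of Allo-AT9 from MPV9 against that of Allo-AT5 from MPV5 (both log2, bars ± SE) for the 59 genes called in Allo-AT9, with equal departures on the dashed line. In Allo-AT5, 35 of the 37 higher (red) and 17 of the 22 lower (blue) genes lie within 1 of 0, and the red point at 2.99 and 3.93 is TaAffx.28462.1.S1_at.

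None of the 59 genes carries a symbol in the annotation used here, which names 1273 of the probe sets. Of these 785 were expressed, with a median departure of -0.01, and 0 were called, while 8 had an unadjusted p under 0.05 upwards and 15 downwards (limma). The named gene with the smallest p, chosen after its values were seen, was LOC778385 on chromosome 4A. Its probe set Ta.7151.1.S1_at read 2.95 and 3.76 in S4 and 2.38 and 4.79 in S5, against 5.86 and 5.98 in MPV9, a departure of -2.45 ± 0.48 (SE) with an adjusted p of 0.169.

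In the lists of known pathways no member named by symbol was called by limma, against 0.232% of all expressed genes. In photosynthesis 16 probe sets were expressed with a median departure of -0.04, none beyond -0.54 or 0.11. In the cytosolic ribosome and translation list 8 were expressed (median -0.03, range -0.21 to 0.26), and in the redox list, with catalase and peroxidases, 11 (median -0.19, range -0.74 to 0.07). The cytoskeleton list of tubulins and profilin held 11 (median -0.19, range -0.71 to 0.54). Among histones and chromatin proteins 6 were expressed (median 0.04), in starch and sugar metabolism 5 (median -0.17) and in membrane transport 4 (median -0.19, 1 with an unadjusted p under 0.05). The median of all expressed genes was 0.02.

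Among defence genes 6 were expressed, with a median of 0.00, and 1 had an unadjusted p under 0.05. PR5, a thaumatin-like pathogenesis-related protein (LOC543292, Ta.24501.1.S1_at, chromosome 7D), read 3.94 and 4.95 in S4 and 4.58 and 4.25 in S5, against 6.74 and 5.71 in MPV9. The groups were separate, TQ27 was high at 7.45 and 9.70, and the departure of -1.80 ± 0.57 (SE) did not pass the test (adjusted p = 1). None of the 10 probe sets for cold and dehydration proteins was expressed.

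Further lists hold probe sets that the study picked on these same samples, for non-additive expression or for parental dominance. They are no independent evidence of direction. The parental dominance genes were picked for taking a parent's level, and the study did not require them to be non-additive. The copies at hand of its persistently non-additive genes and of its parental dominance genes are incomplete, so the counts and medians describe the members named there and not the study's full lists. The first copy names 14 probe sets, of which 13 were expressed. All 13 had both MPV9 arrays above all 4 Allo-AT9 arrays, with a median departure of -1.39, but 0 passed the adjusted test (smallest adjusted p = 0.0871) and 12 had an unadjusted p under 0.05. Over all expressed genes 5.16% were separated downwards, and 395 of 25421 had such a p downwards. The mitochondrial terms had 9 expressed members with a median of -0.44, the vesicle terms 6 with -0.69, and the transport terms 5 with -0.62. The oxidoreductase terms had 7 with a median of -0.29, and of the 54 expressed probe sets of parental dominance 6 had an unadjusted p under 0.05 downwards and 1 upwards. None of these members was called, and an unadjusted p under 0.05 was seen downwards in 3 mitochondrial, 2 vesicle, 1 oxidoreductase and 0 transport members, beside the same 395 of 25421. The lists share members, so these counts are not separate. The members with the largest falls in the mitochondrial, vesicle and oxidoreductase terms were also among the 13.

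The strongest of these was Ta.24245.1.A1_at, listed as an RNA-directed DNA polymerase. It read 3.62 and 5.00 in S4 and 3.63 and 4.68 in S5, against 7.80 and 9.56 in MPV9. The groups were separate, and the departure was -4.45 ± 0.78 (SE; adjusted p = 0.0871). TaAffx.57297.1.S1_at, for the mitochondrial genes matR and nad1, departed by -3.43 ± 0.80 (SE; adjusted p = 0.442), and TaAffx.87200.1.S1_at, for an NADH dehydrogenase, by -3.27 ± 0.74 (SE; adjusted p = 0.387). The expectation of additivity given above is for nuclear genes and does not cover matR and nad1. Whether Ta.24245.1.A1_at reads a nuclear gene was not tested. The MPV9 arrays of these 3 probe sets differed by more than 2-fold, the second being the higher in each. In the same order TTH01 had means of 4.16, 3.92 and 3.74. The TQ27 arrays read 10.88 and 7.84, 10.21 and 7.15, and 8.66 and 7.62. Allo-AT5 departed from MPV5 by -4.94, -4.37 and -4.17, and none of these was called (limma, adjusted p = 0.148, 0.267 and 0.239). The study lists all 3 as non-additive in both lines on these same samples, so the falls in Allo-AT5 are no separate evidence. In Allo-AT9 none of the 3 passed with the replicate number as a block. The adjusted p-values were 0.0893 for Ta.24245.1.A1_at, 0.428 for TaAffx.57297.1.S1_at and 0.135 for TaAffx.87200.1.S1_at. With the spike-in level as a block these were 0.00291, 0.0793 and 0.0224.

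Of the 9 probe sets that the study followed by (q) RT-PCR, 7 were expressed here and 1, TaAffx.28462.1.S1_at, was called. Ta.30798.3.S1_at, a vacuolar-processing enzyme of the protease family that matures vacuolar proteins, read 4.12 and 4.88 in S4 and 4.5 and 5.27 in S5, against 6.88 and 7.32 in MPV9. All arrays of the line were below the mixture and near TQ27, at 4.54 and 4.37. Its departure of -2.41 ± 0.42 (SE) had an adjusted p of 0.0848, of 0.0237 with the replicate number as a block, and of 0.00486 with the spike-in level as a block. Ta.12195.1.A1_at read 7.85 and 4.86 in S4 and 7.89 and 5.60 in S5, against 4.49 and 4.09 in MPV9. Its first replicates were more than 4-fold above its second in both generations, and the departure of 2.26 ± 0.85 (SE) did not pass (adjusted p = 1).

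**Figure D5:**
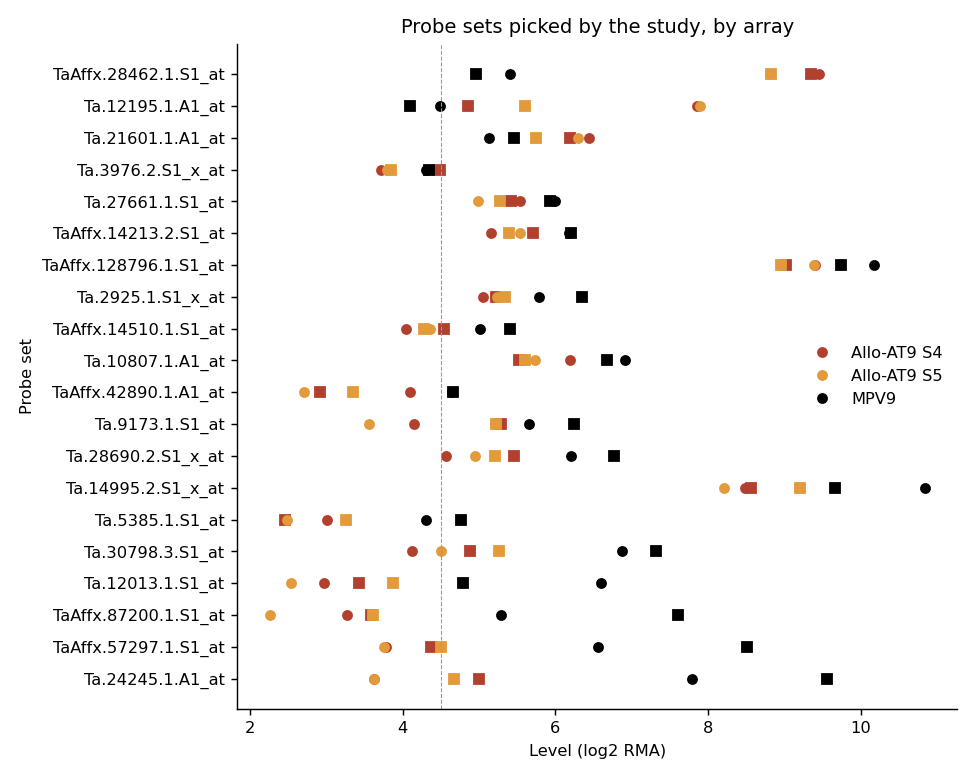
Log2 level on the 4 Allo-AT9 arrays (S4 red, S5 orange) and the 2 MPV9 arrays (black) for the 20 probe sets that the study listed as persistently non-additive or measured by (q) RT-PCR, ordered by departure. Circles are replicate 1, squares replicate 2, and the dashed line is the expression level of 4.5. TaAffx.28462.1.S1_at, between 8.82 and 9.45 in Allo-AT9, stands apart from MPV9 at the top, and Ta.24245.1.A1_at, between 3.62 and 5.00 in Allo-AT9, stands below MPV9 at the bottom.

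The BioC spike-in controls split the 6 arrays in the same way as the replicate number, with levels of 9.31 to 9.60 on the first replicates and 5.67 to 6.86 on the second. Within each of these bands, 2 arrays of Allo-AT9 face 1 of MPV9. The direction within each band follows from the separation of the arrays in all 59 genes, and the size of the departure was over 1 in both bands in 58. Ta.7102.1.S1_at rose by 6.64 in the upper and 5.88 in the lower band, and Ta.7909.1.S1_at departed by -5.45 and -6.27. With the band as a block 69 genes were called, 39 higher and 30 lower, and 58 of the 59 were among them.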

How the data were processed

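RNA of second leaves was measured on Affymetrix wheat arrays, 6 of 18 in the comparison. The authors normalized the arrays by RMA in R and deposited the log2 values, which were used as they are and run from 1.37 to 14.46. The authors' own notes also name limma, MAS5 and GCOS, whose detection calls were not used here, and versions are not given in the sources used here.

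Groups were compared with limma 3.58.1 in R 4.3.3, in 1 linear model of the 9 groups over all 18 arrays without covariate, with empirical Bayes moderation (residual df 9, prior df 2.99). The departure of Allo-AT9 is the mean of its S4 and S5 coefficients minus MPV9. The Benjamini-Hochberg adjustment ran over the 61115 probe sets, and a gene was called at an adjusted p under 0.05 if all arrays of 1 side reached 4.5. A least fold is the distance of the brighter side from that level, for genes whose other side lay under it on all arrays. An array has no count depth, and the number of arrays limits the precision. Replicates are pools of 10 plants, 2 per group. The p-values rest on the spread between them, which also holds any shift shared by same-numbered replicates, as this fit has no block.

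Named by rule are, among called genes without overlap of arrays, the 10 largest changes each way with a gene symbol (none had one) and the 6 largest of all, other probe sets of their clusters, the study's (q) RT-PCR and persistent probe sets, and up to 3 called members each way of a gene list. Symbols came from the array annotation and IWGSC CS RefSeq v2.1 (1272 of 1273 matched). The members, lists and tests were chosen with earlier results of these data known.

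Same-numbered replicates deviated together over the expressed genes (r = 0.47 between S4 and S5, 0.56 between S4 and MPV9, 0.50 between S5 and MPV9). The numbers were therefore taken to pair the arrays in a block, as an alternative to the main fit, which leaves the pairing out. This pairing comes from the data, and the labels do not explain it. It coincides with the spike-in level in the 6 arrays of the comparison but not in the whole series. In TQ27 the first replicate had the lower BioC level (6.10 against 8.77), and both S5 arrays of Allo-AT5 were low (7.05 and 7.22). The block by replicate number and the block by spike-in level thus differ. Alternatives were other sets of arrays, both blocks, filters, scalings, eBayes with trend, unadjusted p, a calculated mixture and leaving out each array. The fit was tested on simulated data.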

Additional observations from a re-analysis of the deposited data

Results flagged for a closer look

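Of 44 named probe sets, 1 had an array of Allo-AT9 that stood apart from the other 3 by Dixon's criterion, which chance alone meets in about 1 of 20 groups. In Ta.7909.1.S1_at the first S4 array read 4.5, and the others lay between 3.67 and 3.80.

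For 12 named probe sets the departure from the mixture differed between Allo-AT9 and Allo-AT5 by limma's test of the difference itself. These genes had been chosen for their departure in Allo-AT9. The departure was higher in Allo-AT9 by 6.35 for Ta.7102.1.S1_at, 5.25 for Ta.16450.1.S1_x_at, 4.98 for Ta.6001.1.S1_at, 4.85 for Ta.11519.1.A1_x_at and 4.48 for Ta.6001.1.S1_x_at. It was higher by 4.39 for Ta.7102.3.S1_at, 4.37 for Ta.11519.1.A1_at and 4.27 for Ta.15177.3.S1_x_at. The difference was -5.62 for Ta.7909.1.S1_at, -4.30 for Ta.30843.1.S1_at, -2.95 for Ta.22307.1.S1_at and -2.95 for Ta.3527.1.S1_at.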

How the results depend on the processing

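With 2 MPV9 arrays the count of calls depends on each of them: 30 genes (23 higher, 7 lower) were called without the first and 34 (22 higher, 12 lower) without the second. Leaving out each of the 6 arrays gave 30 to 61 genes, 22 to 36 higher and 7 to 25 lower. The named leading genes kept 10 to 11 of 12 calls. Of the classes, 22 to 32 genes lay above both parents, 7 to 18 (the 7 without the first MPV9 array) at the low level of TTH01, and 30 to 60 genes were classed.

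For S4 the range was 28 to 37 genes (20 to 28 higher, 6 to 9 lower), for S5 25 to 43 (20 to 32 higher, 3 to 11 lower), and for S5 against S4 0 to 1. The lowest counts came without the first MPV9 array (28 and 25), and S4 gave 31 without its own first array. The difference between the lines gave 15 to 30 genes (12 to 22 higher, 1 to 11 lower). It gave 15 without the first MPV5 or the second MPV9 array, 16 without either S5 array of Allo-AT5, 17 without the first MPV9 array and 18 without the first S4 array of Allo-AT9.

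With the replicate number as a block 56 genes were called (32 higher, 24 lower), 53 of them among the 59. The replicate block lost the calls of Ta.21472.1.S1_at, Ta.6509.1.A1_at, Ta.22694.1.A1_at, Ta.5025.1.A1_at, TaAffx.108815.1.S1_at and Ta.668.1.S1_at (adjusted p = 0.0504 to 0.0759) and called 2 list members. The spike-in block gave 15 lower genes between the lines and 4 list members. Fitting the arrays of a comparison alone left 0 calls in S4 and in S5. A level of 5.5 left 11 lower genes in each generation. Removing low probe sets before the fit called 3 list members, and eBayes with trend 2.

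At an unadjusted p under 0.05, Allo-AT9 gave 753 genes (358 higher, 395 lower), S4 649 (339 and 310), S5 799 (398 and 401), S5 against S4 368, and the lines 825 (369 and 456). Then 21 list members were called, 58 genes were above both parents, 102 at the low level of TTH01, and 604 classed. Against the calculated mixture 112 genes were called, 76 of them lower, and 76 in S4 (45 lower), 42 lower in S5, 11 lower between the lines and 5 list members. Its arrays are not independent of the parent arrays in the fit, so these counts are descriptive. The cause of these shifts was not tested.

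Of the named genes that were not called, Ta.16450.2.S1_at (-0.08) turned to 0.036 against the calculated mixture, 0.17 without the first S4 array, 0.10 without the first S5 array and 0.37 without the second MPV9 array, with a lowest value of -0.54 without the first. Ta.16450.3.S1_at turned to 0.21, 0.03 and 0.11 without the same arrays, with a lowest value of -0.32 without the second S4 array.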
